A study of Mus musculus with 6 samples.

Results

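Fatty acid uptake and beta-oxidation were examined through 37 genes named for these roles, from lipoprotein lipase and the fatty acid carriers at the cell surface to the mitochondrial enzymes and the electron transfer flavoprotein. All 37 were found by symbol among the 37979 genes of the expression table. RNA-seq had been carried out on whole gastrocnemius (GAS) muscle of 3 wildtype (WT) and 3 Kvβ2 knockout (KO) male mice aged 20 weeks, with 1 library per mouse and no treatment in either genotype. Both genotypes came from interbreeding of heterozygous null mice, so the KO lacked Kvβ2, the potassium channel beta subunit encoded by *Kcnab2*, in every tissue and throughout life. Values were given as FPKM, fragment counts scaled to transcript length and to the depth of the library. This scaling does not make libraries or genes fully comparable. The FPKM summed over all genes ran from 382780 in WT replicate 1 to 477356 in KO replicate 8. In whole muscle, fewer cells of a type and less RNA per cell cannot be told apart.

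Long-chain fatty acids reach a muscle fibre after lipoprotein lipase frees them from circulating triglycerides, and they cross the membrane with the help of CD36 and the fatty acid transport proteins. Acyl-CoA synthetases activate them, carnitine palmitoyltransferases carry them into mitochondria, and malonyl-CoA blocks that entry. Each round of beta-oxidation then runs through an acyl-CoA dehydrogenase, a hydratase, a hydroxyacyl-CoA dehydrogenase and a thiolase, and slow and oxidative fibres depend on this pathway more than fast glycolytic fibres do.

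*Kcnab2* (chr4:152390742-152477871, GRCm38) was at 0.233, 0.10 and 0.11 FPKM in the WT libraries, against 0, 0.0151 and 0 in the KO libraries, so the labels held but the gene was too low to be tested. Depth was estimated from the steps in the lowest FPKM values at 14730000 to 21490000 fragments per library, which makes 1 fragment on 1 kilobase worth 0.0465 to 0.0679 FPKM. Skeletal muscle genes were abundant in every library, with *Acta1* at 5029 to 13917 FPKM. The fast fibre genes *Myh4*, *Atp2a1* and *Tnnt3* were listed at 0 in all 6 libraries, while fast troponin I *Tnni2* was at 7742 to 11647 FPKM. A 0 listed for these genes was not taken as absence of their RNA, and its cause was not tested. WT replicate 8 stood apart in its slow fibre genes. Slow myosin *Myh7* was at 0.0513 FPKM there, against 24.3 and 22.1 FPKM in the other WT libraries and 15.2 to 77.4 FPKM in KO. Values that moved by over 1.5 times or turned in sign when this library was left out are given with and without it, which applies to 20 of the 36 tested genes.

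Promoter sequences were read from RefSeq on GRCm38.p6 for 33 of the 37 genes. The stretches shown were chosen for the genes on which the results turn: the bases between the *Hadha* and *Hadhb* genes, whose products form 1 enzyme, the upstream bases of both subunits of the electron transfer flavoprotein, and those of *Acads* and *Acadm*, related dehydrogenases with unlike differences between the genotypes. Capitals mark AGGTCA, the half-site of nuclear receptors, or GGGCGG, the GC box, on either strand. *Hadha* and *Hadhb* lie head to head, with RefSeq starts 273 bases apart, and only the 85 bases between their outermost annotated starts (chr5:30155163-30155247) are given, on the strand of *Hadhb*. The windows of *Etfa* (chr9:55512244-55512493, minus strand), *Etfb* (chr7:43443822-43444071, plus strand), *Acads* (chr5:115119347-115119596, minus strand) and *Acadm* (chr3:153944644-153944893, minus strand) hold the 250 bases before the first transcribed base.
Hadhb: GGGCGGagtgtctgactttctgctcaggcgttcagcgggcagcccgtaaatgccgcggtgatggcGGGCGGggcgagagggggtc
Etfa: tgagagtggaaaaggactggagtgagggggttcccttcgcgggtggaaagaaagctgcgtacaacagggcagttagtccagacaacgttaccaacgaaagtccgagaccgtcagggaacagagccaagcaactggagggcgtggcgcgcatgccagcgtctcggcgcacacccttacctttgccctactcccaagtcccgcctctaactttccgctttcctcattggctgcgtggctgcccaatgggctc
Etfb: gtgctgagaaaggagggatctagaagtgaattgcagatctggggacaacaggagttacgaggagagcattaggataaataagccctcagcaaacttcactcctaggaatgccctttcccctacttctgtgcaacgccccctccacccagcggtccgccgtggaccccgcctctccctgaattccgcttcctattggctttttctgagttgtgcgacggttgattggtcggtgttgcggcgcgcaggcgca
Acads: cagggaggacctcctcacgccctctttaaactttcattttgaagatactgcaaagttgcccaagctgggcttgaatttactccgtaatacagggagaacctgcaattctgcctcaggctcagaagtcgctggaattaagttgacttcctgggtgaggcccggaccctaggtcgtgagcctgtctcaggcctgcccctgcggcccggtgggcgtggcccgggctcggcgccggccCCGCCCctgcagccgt
Acadm: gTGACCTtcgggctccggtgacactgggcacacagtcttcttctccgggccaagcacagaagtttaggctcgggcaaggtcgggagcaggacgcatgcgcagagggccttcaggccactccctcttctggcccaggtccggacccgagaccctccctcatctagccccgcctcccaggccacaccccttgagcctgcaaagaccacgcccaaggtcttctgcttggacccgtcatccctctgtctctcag

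Over windows of 250 bases before and 50 after the start, AGGTCA was found on either strand in 7 of 33 genes (21.2%), against 18.1% of all 27025 genes with a window. A gene was counted if any of its windows held a match. The longer form AAGGTCA, which estrogen-related receptors are known to bind and which contains AGGTCA, was found in 3 genes (9.09%), *Acacb*, *Acadm* and *Acsl6*, against 5.38% of all. The direct repeat AGGTCANAGGTCA was found in 0 of the 33 and in 0.0481% of all. GGGCGG was found in 24 genes (72.7%) against 38.2% of all, and CACGTG in 1 (3.03%), *Slc27a1*, against 8.09% of all. The upstream bases of these genes were also richer in G and C, with a median of 59.2% against 52.4% over all windows. A match gives only the presence of the letters.

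No gene of the pathway differed between KO and WT after correction across all genes. Of the 37 genes, 36 had a mean of at least 0.5 FPKM and were tested with limma on log2(FPKM + 0.1), a scale that understates the change of low genes. At an adjusted p under 0.05 (Benjamini-Hochberg, over 12334 genes), limma called 0 of the 36, where it called 0.324% of all tested genes. At an unadjusted p under 0.05, it gave 9 of the 36 (25%), where the share over all tested genes was 26.2%. Of these 9, 8 were higher in KO (22.2% of the 36, against 15.3% of all genes) and 1 was lower (2.78%, against 10.9%). With a weight for each library, limma called 10 of the 36, but it then called 3147 of the 12334 genes as well.

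The log2 fold change of KO over WT was above 0 for 26 of the 36 genes (72.2%), against 51.0% of all tested genes. Its median was 0.25, against 0.01 over all genes. Without WT replicate 8, 21 of the 36 were above 0, against 51.3% of all genes, and the median was 0.075. In that fit limma called 0 of the 36, against 0.308% of all genes, and gave 7 (19.4%) an unadjusted p under 0.05, against 24.3%. Of these, 5 were higher in KO, against 15.5% of all genes, and 2 (5.56%) lower, against 8.71%. The highest WT library lay below the lowest KO library for 7 of the 36 (19.4%), against 18.3% of all genes, and the reverse held for 1 (2.78%), against 16.2%. For 24 of the 36 genes the difference between the genotypes was smaller than the range of the 3 WT libraries on the log2 scale. That count has no share over all tested genes beside it, so it only describes these 36. Most of the pathway was abundant. The mean over the 6 libraries was above 50 FPKM for 16 genes, 10 to 50 FPKM for 12 and under 10 FPKM for the other 8 tested.

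**Figure D1:**
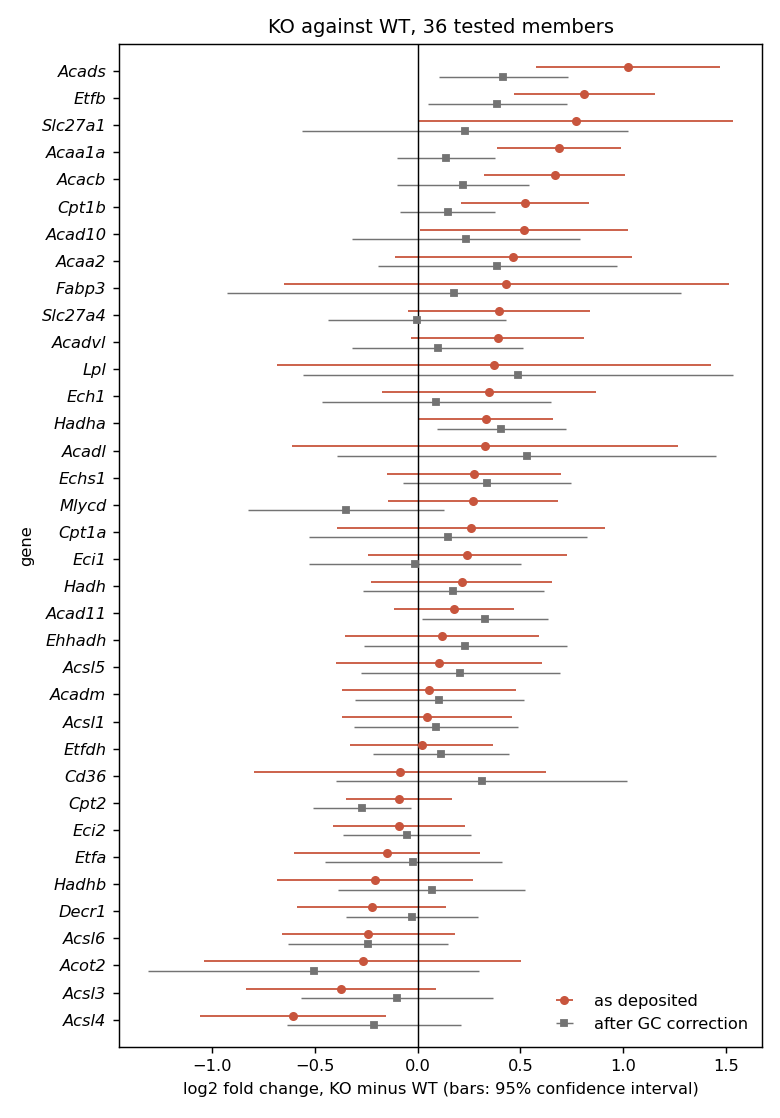
Log2 fold change of KO over WT (horizontal axis) with its 95% confidence interval for the 36 tested genes, as deposited (circles) and after correction for GC content (squares). Genes are ordered by their log2 fold change as deposited. The intervals of *Acads*, *Etfb*, *Acaa1a*, *Acacb* and *Cpt1b* lie furthest above 0 as deposited, and their squares sit nearer to 0.

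The 5 genes of uptake were as variable between mice of 1 genotype as between the genotypes. *Fabp3*, the fatty acid binding protein of heart and slow muscle, was at 215, 158 and 85.2 FPKM in WT and 98.9, 275 and 261 FPKM in KO. The lowest library of each genotype lay far below the other two, and the genotypes overlapped. The log2 fold change was 0.43 (SE 0.46, limma adjusted p = 0.577) and was 0.060 without WT replicate 8. *Lpl*, lipoprotein lipase, was at 121, 77.8 and 44.6 FPKM in WT and 53.7, 150 and 113 FPKM in KO, with a log2 fold change of 0.37 (SE 0.45) that was -0.0010 without WT replicate 8. *Cd36*, the main fatty acid translocase of muscle, was at 107, 75.7 and 53.3 FPKM in WT and 50.1, 96.2 and 74.7 FPKM in KO. The lowest value of *Cd36* was in KO, the highest in WT, and its log2 fold change was -0.09 (SE 0.30), and -0.34 without WT replicate 8.

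The transport proteins were less abundant. *Slc27a1*, fatty acid transport protein 1, was at 8.42, 6.59 and 4.46 FPKM in WT and 6.92, 15.4 and 11.7 FPKM in KO. KO replicate 1 lay among the WT libraries. *Slc27a1* had a log2 fold change of 0.77 (SE 0.33, limma adjusted p = 0.190), which was 0.53 without WT replicate 8 and 0.23 after correction for GC content. *Slc27a4*, fatty acid transport protein 4, was at 1.33 to 1.595 FPKM in WT and 1.56 to 2.15 FPKM in KO, with a log2 fold change of 0.40 (SE 0.19).

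Among the 5 long-chain acyl-CoA synthetases, which activate fatty acids by joining them to coenzyme A, 2 had values above 0 and 3 below. *Acsl1*, the main form of muscle, was at 67.9, 67.2 and 54.1 FPKM in WT and 51.6, 79.5 and 65.8 FPKM in KO, a log2 fold change of 0.04 (SE 0.18) that was -0.06 without WT replicate 8. *Acsl4*, which prefers arachidonic acid, was the 1 gene of the pathway with all KO libraries below all WT libraries. It was at 8.23, 10.1 and 10.1 FPKM in WT and 7.76, 4.72 and 6.36 FPKM in KO. Its log2 fold change was -0.61 (SE 0.19, limma adjusted p = 0.117). After correction for GC content it was -0.21. *Acsl3* (13.7 to 19.3 FPKM in WT, 9.41 to 14.2 FPKM in KO) and *Acsl6* (19.6 to 25.4 FPKM in WT, 14.6 to 22.3 FPKM in KO) had log2 fold changes of -0.37 and -0.24. *Acsl5* was the lowest of the family, at 2.06 to 3.25 FPKM in WT and 2.19 to 3.01 FPKM in KO, with a log2 fold change of 0.10 (SE 0.21). Without WT replicate 8, *Acsl3* was at -0.22 and *Acsl5* at 0.02 on this scale.

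In carnitine transfer, the muscle form of carnitine palmitoyltransferase 1, *Cpt1b* (chr15:89416405-89425863), was at 61.7, 74.5 and 71.2 FPKM in WT and 85.5, 110.5 and 102 FPKM in KO. The genotypes did not overlap. Its log2 fold change was 0.52 (SE 0.13, 95% interval 0.21 to 0.83, limma adjusted p = 0.0859), and 0.15 after correction for GC content. In GENCODE vM21, 81.4% of the exonic bases of *Cpt1b* were shared with Gm44502 on the same strand, a gene that is not in the table, so fragments of the 2 genes could not be separated. The liver form *Cpt1a* was far lower, at 2.97, 1.81 and 1.38 FPKM in WT and 1.95, 2.68 and 2.498 FPKM in KO. The log2 fold change of *Cpt1a* was 0.26 (SE 0.28), and 0.02 without WT replicate 8. *Cpt2*, the enzyme of the inner membrane, varied little between libraries, at 21.9 to 23.2 FPKM in WT and 18.8 to 22.7 FPKM in KO. *Cpt2* had a log2 fold change of -0.09 (SE 0.11, 95% interval -0.35 to 0.17).

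All 6 acyl-CoA dehydrogenases, which open each round of oxidation, had log2 fold changes above 0, against 51.0% of all tested genes. Their median was 0.36. Limma called 0 of the 6, against 0.324% of all tested genes. Without WT replicate 8, 4 of the 6 were above 0, with a median of 0.26. *Acads* (chr5:115110299-115119346), the short-chain form, had the largest difference of the pathway. It was at 9.70, 11.3 and 12.3 FPKM in WT and 17.8, 29.1 and 22.3 FPKM in KO. Every KO library lay above every WT library. The log2 fold change was 1.02 (SE 0.19, 95% interval 0.57 to 1.47, limma adjusted p = 0.0667). It was 1.10 without WT replicate 8, and 0.42 after correction for GC content (limma unadjusted p = 0.0164, adjusted p = 0.367).

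The medium-chain form *Acadm* and the long-chain form *Acadl* were more abundant than *Acads*. *Acadm* was at 179, 157 and 140.2 FPKM in WT and 126, 189.8 and 184.7 FPKM in KO, with a log2 fold change of 0.06 (SE 0.18, 95% interval -0.37 to 0.48), and -0.03 without WT replicate 8. *Acadl* was at 110.2, 74.4 and 45.0 FPKM in WT and 53.1, 124 and 111 FPKM in KO, with a log2 fold change of 0.33 (SE 0.40) that was -0.0096 without WT replicate 8. For both, KO replicate 1 lay below the WT mean and the other KO libraries above it. The very-long-chain form *Acadvl* was at 73.4 to 89.3 FPKM in WT and 84.1 to 133 FPKM in KO (log2 fold change 0.39, SE 0.18). Of its exonic bases, 42.9% overlap *Dvl2* on the opposite strand. *Acad10* was at 1.50, 1.104 and 1.29 FPKM in WT and 1.84, 1.54 and 2.37 FPKM in KO, a log2 fold change of 0.52 (SE 0.22, limma adjusted p = 0.184). The genotypes did not overlap for *Acad10*, but its lowest KO library was close to its highest WT library. After correction for GC content, *Acad10* was at 0.23 and *Acadvl* at 0.096 on the log2 scale. *Acad11* was at 17.4 to 21.0 FPKM in WT and 20.7 to 24.6 FPKM in KO (log2 fold change 0.17, SE 0.12).

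The mitochondrial trifunctional protein carries out the later steps for long chains with its alpha subunit *Hadha* and its beta subunit *Hadhb*. *Hadha* (chr5:30118304-30155162) was at 104, 102 and 90.7 FPKM in WT and 105, 145 and 126 FPKM in KO. The genotypes did not overlap, but the lowest KO library was close to the highest WT library. This gave a log2 fold change of 0.33 (SE 0.14, limma adjusted p = 0.184). *Hadhb* was at 239, 194 and 157 FPKM in WT and 131, 188 and 192 FPKM in KO, with a log2 fold change of -0.21 (SE 0.20, limma adjusted p = 0.540). Without WT replicate 8 it was -0.36. After correction for GC content *Hadhb* was at 0.067 and *Hadha* at 0.41, so the opposite signs seen as deposited did not remain.

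The enzymes for shorter chains had overlapping genotypes. *Hadh*, the short-chain hydroxyacyl-CoA dehydrogenase, was at 58.4 to 83.7 FPKM in WT and 63.8 to 94.6 FPKM in KO. *Echs1*, the short-chain hydratase, was at 47.5 to 56.1 FPKM in WT and 47.7 to 73.1 FPKM in KO. *Acaa2*, a mitochondrial thiolase, was at 41.8 to 63.9 FPKM in WT and 49.8 to 91.5 FPKM in KO. Their log2 fold changes were 0.21, 0.27 and 0.47, with SE of 0.19, 0.18 and 0.25. *Hadh* was at 0.09 without WT replicate 8.

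The auxiliary enzymes, which reposition or reduce the double bonds of unsaturated fatty acids, were split, 2 above 0 and 2 below. *Ech1* (52.2 to 82.1 FPKM in WT, 61.4 to 96.3 FPKM in KO) and the isomerase *Eci1* (36.6 to 54.3 FPKM in WT, 39.5 to 59.4 FPKM in KO) had log2 fold changes of 0.35 and 0.24. The isomerase *Eci2* (35.4 to 47.1 FPKM in WT, 33.9 to 39.5 FPKM in KO) and the dienoyl-CoA reductase *Decr1* (26.5 to 39.4 FPKM in WT, 25.7 to 29.1 FPKM in KO) had log2 fold changes of -0.09 and -0.22. The genotypes overlapped for all 4. Without WT replicate 8, *Ech1* and *Eci1* had log2 fold changes of 0.22 and 0.11, and *Eci2* and *Decr1* of -0.17 and -0.36.

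The electron transfer flavoprotein takes electrons from the acyl-CoA dehydrogenases, and *Etfdh* passes them to ubiquinone. Its beta subunit *Etfb* (chr7:43444083-43457800) was at 72.0, 63.7 and 67.0 FPKM in WT and 97.0, 139 and 123 FPKM in KO. All KO libraries were above all WT libraries. The log2 fold change was 0.81 (SE 0.15, 95% interval 0.47 to 1.15, limma adjusted p = 0.0667), and 0.39 after correction for GC content (limma unadjusted p = 0.0303, adjusted p = 0.419). On the same strand, 53.0% of its exonic bases are shared with Gm45233, which the table does not hold. The alpha subunit *Etfa* was at 155, 122 and 102 FPKM in WT and 90.0, 124 and 126 FPKM in KO, a log2 fold change of -0.15 (SE 0.19, limma adjusted p = 0.651). *Etfdh* was at 55.9, 47.2 and 42.6 FPKM in WT and 41.7, 53.997 and 52.1 FPKM in KO, a log2 fold change of 0.02 (SE 0.15). Without WT replicate 8, *Etfa* was at -0.29 and *Etfdh* at -0.07 on the log2 scale.

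The peroxisomal thiolase *Acaa1a* (chr9:119339676-119350299) was at 7.21, 7.39 and 8.76 FPKM in WT and 11.3, 13.8 and 12.6 FPKM in KO. The genotypes did not overlap. Its log2 fold change was 0.69 (SE 0.13, 95% interval 0.38 to 0.99, limma adjusted p = 0.0667), and 0.14 after correction for GC content. It can share fragments with its close copy *Acaa1b*. The peroxisomal bifunctional enzyme *Ehhadh* was at 1.47 to 2.28 FPKM in WT and 1.99 to 2.34 FPKM in KO, a log2 fold change of 0.12 (SE 0.20) that was 0.20 without WT replicate 8.

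The thioesterases *Acot1* and *Acot2*, which release free fatty acids from coenzyme A, were low. *Acot2* was at 4.02, 3.38 and 1.66 FPKM in WT and 1.93, 3.004 and 2.19 FPKM in KO, a log2 fold change of -0.27 (SE 0.33) that was -0.64 without WT replicate 8. *Acot1*, under the filter on low FPKM, was at 0.513 and 0.208 FPKM and listed at 0 in the WT libraries, and at 0.0475, 0.293 and 0.221 FPKM in KO. An exact permutation test, two-sided, gave p = 1, and 3 libraries against 3 cannot go below 0.1. *Acot1* and *Acot2* are near-identical and can share fragments.

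Malonyl-CoA is made by *Acacb*, the acetyl-CoA carboxylase at the mitochondrial surface, and removed by *Mlycd*. *Acacb* (chr5:114146535-114250761) was at 15.5, 22.1 and 18.4 FPKM in WT and 30.2, 27.1 and 31.0 FPKM in KO. The genotypes did not overlap, and KO replicate 1 was here as high as the others. The log2 fold change was 0.67 (SE 0.15, 95% interval 0.32 to 1.01, limma adjusted p = 0.0750), and 0.22 after correction for GC content. *Mlycd* was at 28.04, 29.2 and 20.8 FPKM in WT and 25.6, 33.4 and 34.9 FPKM in KO. Its log2 fold change of 0.27 (SE 0.18) was -0.35 after the same correction and 0.12 without WT replicate 8.

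**Figure D2:**
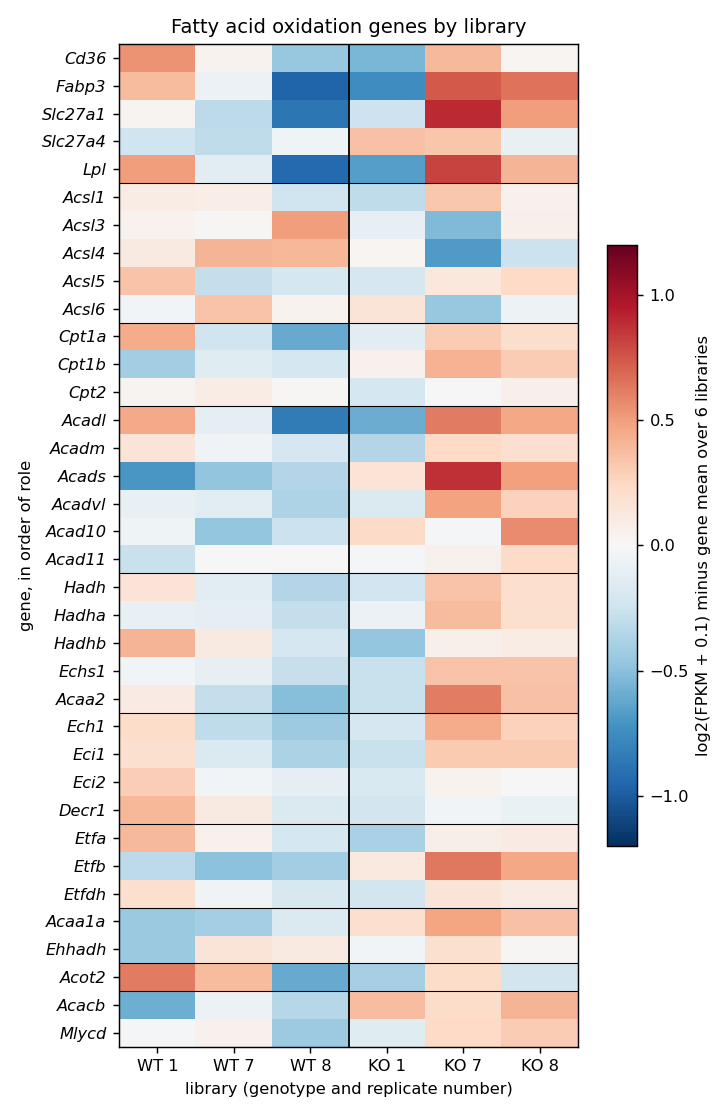
Log2(FPKM + 0.1) of the 36 tested genes in each of the 6 libraries, minus the gene's mean over the libraries (colour), with genes as rows in order of role and libraries as columns. In 21 of the 36 rows WT replicate 1 is the highest WT library, WT replicate 8 the lowest, and KO replicate 1 the lowest KO library.

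The differences between the genotypes rose with the GC content of the transcripts, in these genes as across the transcriptome. The Spearman correlation of the log2 fold change with GC content was 0.72 across the 36 genes and 0.70 across the 11985 tested genes with a known GC content. Genes are not independent replicates, and all share the same 6 libraries. Of the 6 genes under 46% GC (*Cd36*, *Acsl3*, *Acsl4*, *Acadl*, *Hadhb* and *Decr1*), 1 had a log2 fold change above 0, and their median was -0.22, against -0.27 for all 3214 genes in that range. Of the 11 genes from 46% to 50% GC, 9 were above 0 with all 6 libraries, and their median was 0.10. In that range 918 of all 2712 genes were above 0, with a median of -0.09. Of the 9, *Lpl* (-0.0010), *Acsl1* (-0.06), *Acadm* (-0.03) and *Etfdh* (-0.07) were below 0 without WT replicate 8. From 50% to 54%, 6 of 9 were above 0, with a median of 0.24, against 0.11 for all 2695 genes. All 10 genes at 54% GC or more (*Slc27a1*, *Slc27a4*, *Cpt1b*, *Acads*, *Acadvl*, *Acad10*, *Etfb*, *Acaa1a*, *Acacb* and *Mlycd*) were above 0, with a median of 0.59, against 0.43 for all 3364 genes in that range, 3058 of which were above 0. Median GC content was 56.5% for the 9 genes with an unadjusted p under 0.05 and 50.5% for the 36.

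Each library's trend on GC content was therefore subtracted, and limma was run again. With this correction 0 of the 36 genes were called, against 0.117% of all genes, and 5 (13.9%) had an unadjusted p under 0.05, against 10.7% of all. These were 4 with positive values (11.1%, against 5.33% of all genes), *Acads*, *Etfb*, *Hadha* (log2 fold change 0.41) and *Acad11* (0.33), and 1 with a negative value (2.78%, against 5.4%), *Cpt2* (-0.27). After the correction the KO libraries lay wholly above WT for 4 genes (11.1%), against 8.14% of all genes, and wholly below for 1 (2.78%), against 9.33%. Of the 36, 25 (69.4%) were then above 0, against 49.3% of all genes, and the median of the 36 was 0.14. Of the 26 genes above 0 as deposited, 23 were above 0 after the correction as well. The other 3, *Slc27a4*, *Eci1* and *Mlycd*, turned negative, and 2, *Cd36* and *Hadhb*, turned positive. All 6 acyl-CoA dehydrogenases stayed above 0 in this fit of all libraries, and *Hadhb* moved from -0.21 to 0.067. As deposited but without WT replicate 8, *Acadm* was at -0.03 and *Acadl* at -0.0096. The part of GC content in the genotype difference was not tested.

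**Figure D3:**
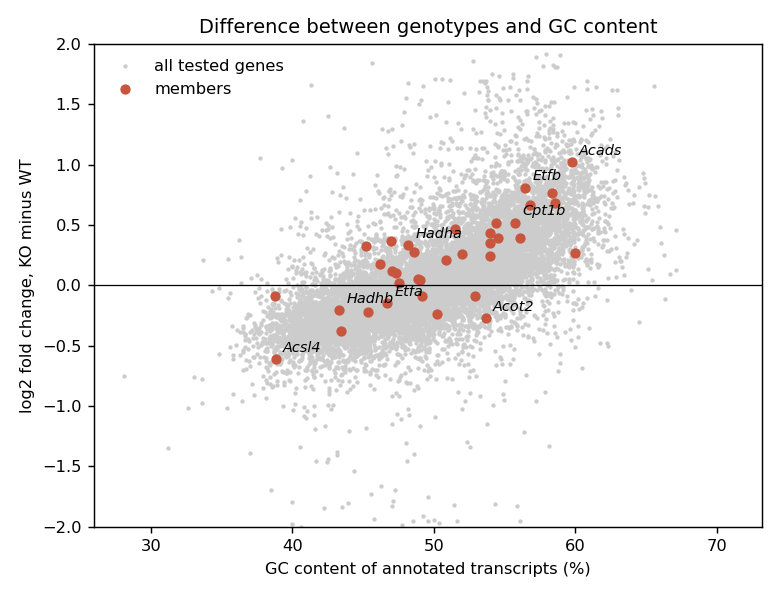
Log2 fold change of KO over WT (vertical axis, shown from -2 to 2) against the GC content of the transcripts in percent (horizontal axis), with all tested genes in grey and the 36 genes of fatty acid oxidation in red. Both sets rise from negative values at low GC content to positive values at high GC content; 146 genes lie beyond the vertical range.

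Ratios of partner genes within a library do not depend on library scaling. The ratio of *Hadha* to *Hadhb* was 0.436, 0.526 and 0.578 in WT and 0.804, 0.769 and 0.658 in KO. It was thus 0.513 ± 0.0716 in WT and 0.743 ± 0.0764 in KO (SD, n = 3), without overlap. The difference was 0.54 on the log2 scale and 0.34 after correction for GC content, each with p = 0.1 by an exact permutation test, two-sided, the smallest value that 3 libraries against 3 allow. *Hadha* has 48.2% GC and *Hadhb* 43.3%.

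The ratio of *Etfb* to *Etfa*, chosen after its values were seen, was 0.465, 0.522 and 0.659 in WT and 1.08, 1.12 and 0.976 in KO. Its mean was 0.549 ± 0.0997 in WT and 1.06 ± 0.0755 in KO (SD, n = 3), again without overlap. The difference was 0.96 on the log2 scale and 0.41 after correction for GC content. *Etfb* has 56.5% GC and *Etfa* 46.7%. The ratio of *Cpt1a* to *Cpt1b* was 0.0481, 0.0243 and 0.0193 in WT and 0.0228, 0.0242 and 0.0244 in KO. The KO values lay inside the WT range (log2 difference -0.25, exact permutation p = 0.8).

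**Figure D4:**
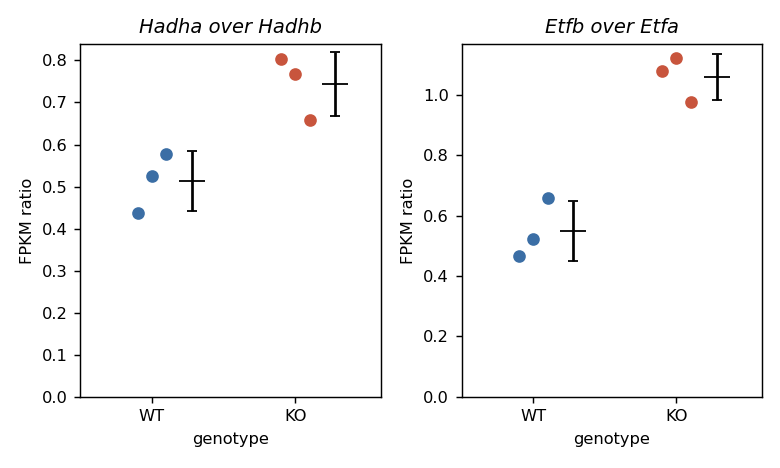
Ratio of the FPKM of *Hadha* to *Hadhb* and of *Etfb* to *Etfa* (vertical axis, no unit) in each library, with mean and SD per genotype (n = 3). The KO points lie above the WT points in both panels, with means of 0.743 against 0.513 and 1.06 against 0.549.

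Within each genotype, many genes of the pathway ranked the libraries alike. WT replicate 1 was above WT replicate 7 and that above WT replicate 8 in 21 of the 36 genes (58.3%), against 20.6% of all tested genes. KO replicate 1 was the lowest KO library in 30 (83.3%), against 33.1% of all. Both held for 21 genes (58.3%), against 7.37% of all tested genes, and after correction for GC content for 23 (63.9%), against 6.99%. The 21 genes were *Cd36*, *Fabp3*, *Slc27a1*, *Lpl*, *Acsl1*, *Cpt1a*, *Acadl*, *Acadm*, *Acadvl*, *Acot2*, all 5 genes of the hydratase, hydroxyacyl-CoA dehydrogenase and thiolase steps, all 4 auxiliary enzymes, *Etfa* and *Etfdh*. *Acads*, *Etfb*, *Cpt1b*, *Acaa1a* and *Acacb*, which had the lowest p-values between the genotypes, were not among them. Over the 36 genes, WT replicate 1 exceeded WT replicate 8 by at least 1.5-fold in 11 (30.6%), against 9.08% of all tested genes. The summed FPKM of the 37 genes was 2170, 1823 and 1492 in WT and 1576, 2497 and 2308 in KO, so the sum varied by more within each genotype than between the genotype means.

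Slow and oxidative fibre markers had the same library order in 9 of 10 tested genes. *Tnni1*, slow troponin I, was at 34.4, 30.5 and 0.378 FPKM in WT and 18.9, 73.3 and 119 FPKM in KO. Myoglobin *Mb* was at 1825, 1069 and 543 FPKM in WT and 997, 3150 and 2260 FPKM in KO. The summed FPKM of the list was 3008, 1951 and 865 in WT and 1671, 4733 and 4598 in KO, and all 10 had log2 fold changes above 0, with a median of 1.51 and 0 called. Without WT replicate 8, 8 of the 10 were above 0, with a median of 0.43. The marker with the lowest p-value, fast oxidative myosin *Myh2*, did not have that order, at 178.0, 178.8 and 274 FPKM in WT and 304, 419 and 329 FPKM in KO, and the next was *Myl3*, at 61.5, 58.3 and 7.52 FPKM in WT and 35.1, 131 and 177 FPKM in KO.

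With the mean level of these markers as a covariate, added after the data were seen, 17 of the 36 genes had a log2 fold change above 0, against 51.3% of all genes, and the median was -0.03. At an unadjusted p under 0.05 there were then 9 genes (25%), against 23.0% of all. Of these, 5 were higher in KO (13.9%, against 14.9% of all), *Cpt1b*, *Acads*, *Etfb*, *Acaa1a* and *Acacb*, and 4 were lower (11.1%, against 8.15%), *Hadhb*, *Decr1*, *Etfa* and *Acot2*. The adjusted p called 0 of the 36, against 0.162% of all genes. The median log2 level of the markers, relative to their mean over the libraries, was -3.41 in WT replicate 8 and -0.47 to 1.75 in the other libraries. The covariate thus rests mostly on that library, and it also differs between the genotypes. The fit cannot separate fibre type from either.

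**Figure D5:**
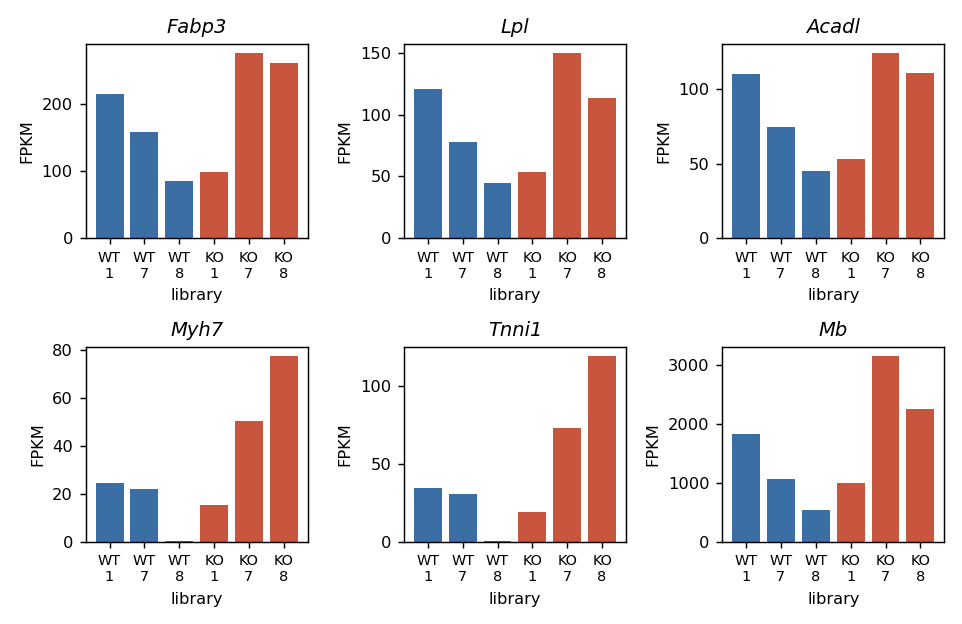
FPKM (vertical axis, from 0) of *Fabp3*, *Lpl* and *Acadl* and of the slow and oxidative fibre genes *Myh7*, *Tnni1* and *Mb* in each of the 6 libraries (bars). WT replicate 8 has the lowest WT bar and KO replicate 1 the lowest KO bar in every panel.

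Markers of other cell types and of mitochondria were read beside the pathway. The 16 mitochondrial content markers were split, 7 above 0 and 9 below, with a median of -0.08 and summed levels of 5912 to 6832 FPKM across the libraries. *Uqcrc1* and *Cox4i1*, subunits of complexes III and IV, had the lowest p-values, with log2 fold changes of 0.53 each, which were 0.20 and 0.19 after correction for GC content. All KO libraries were above WT for 4 of the 16, against 18.3% of all tested genes, and below WT for another 4, against 16.2%. Among the latter, named after their values were seen, were the import subunit *Timm23* at -0.34 and the outer membrane channel *Vdac2* at -0.27. All 8 tested adipocyte markers were above 0 (median 2.06, 0 called), with summed levels of 134 to 183 FPKM in WT and 208 to 337 FPKM in KO. Most of the WT sum was *Gpd1*, an enzyme of the glycerol phosphate shuttle that muscle also expresses (log2 fold change 0.36). Without it the sums were 37.1, 8.03 and 20.1 FPKM in WT and 47.5, 188.0 and 48.7 FPKM in KO. KO replicate 7 was far above the other KO libraries, which lay nearer to WT replicate 1. *Plin1*, the lipid droplet coat of adipocytes, was at 0.192, 0.138 and 0.499 FPKM in WT and 1.14, 7.37 and 1.37 FPKM in KO, and *Retn*, resistin, at 0.333 to 0.641 FPKM in WT and 0.996 to 4.91 FPKM in KO. Of 10 capillary endothelium markers, whose cells carry lipoprotein lipase, 7 were above 0 (median 0.18), and *Gpihbp1* and *Tie1* had the lowest p-values, with log2 fold changes of 0.69 and 0.79. The 3 below 0, named after their values were seen, were *Tek* (-0.03), *Emcn* (-0.10) and the VEGF receptor *Kdr* (-0.44). Their part, and that of fibre type, in the values of the pathway was not tested.

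A further 84 genes of lipid transport, activation, mitochondrial and peroxisomal oxidation, thioesterases and fuel choice were in the table, and 70 were tested. Of these, 47 were above 0, where the share over all tested genes was 51.0%, and 23 below (median 0.15). Limma called 1 of the 70, where it called 0.324% of all tested genes. The called gene was *Esrra* (chr19:6910977-6921813), estrogen-related receptor alpha, a transcription factor known to bind the promoters of beta-oxidation genes. It was at 6.25, 7.78 and 9.68 FPKM in WT and 17.7, 21.8 and 18.5 FPKM in KO. No KO library overlapped with WT, with a log2 fold change of 1.30 (SE 0.17, limma adjusted p = 0.0435). After correction for GC content it was 0.75 (limma adjusted p = 0.149). With 1 library left out in turn the log2 fold change was 1.14 to 1.45, and *Esrra* was called in 1 of the 6 fits, the one without WT replicate 8 (limma adjusted p = 0.0360, against up to 0.235 in the others). Over all alternatives the limma adjusted p of *Esrra* ran from 0.0035, with library weights, to 0.620, with the GC correction and without WT replicate 7.

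None of the other 69 was called. *Ppard*, a nuclear receptor for fatty acids, was at 1.62, 2.78 and 2.98 FPKM in WT and 4.69, 5.85 and 5.22 FPKM in KO (log2 fold change 1.10, SE 0.23, limma adjusted p = 0.0716). Among the transport genes, *Gpihbp1*, which anchors lipoprotein lipase on capillaries, was at 18.9, 14.9 and 17.9 FPKM in WT and 28.5, 26.7 and 27.8 FPKM in KO, and *Lmf1*, a maturation factor for lipases, had a log2 fold change of 0.70. In the mitochondrial group *Acad12* and *Ivd*, isovaleryl-CoA dehydrogenase of leucine breakdown, had log2 fold changes of 0.52 and 0.48, and in the activation group *Acsf3*, malonyl-CoA synthetase, had 0.65. In the peroxisomal group *Pex5*, an import receptor, had a log2 fold change of 0.31. Negative values were found for *Crot*, peroxisomal carnitine octanoyltransferase, at 22.4, 25.7 and 25.8 FPKM in WT and 22.2, 12.8 and 17.0 FPKM in KO. The thioesterase *Them4* had a log2 fold change of -0.52, while the thioesterase *Acot11* was at 0.86. After correction for GC content, *Ppard* was at 0.59, *Gpihbp1* at 0.33, *Lmf1* at 0.43 and *Acad12* at 0.46 on the log2 scale. *Ivd* was then at 0.33, *Acsf3* at 0.16, *Pex5* at 2.66e-05, *Crot* at -0.29, *Them4* at -0.30 and *Acot11* at 0.47.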

How the data were processed

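The deposited table held FPKM values of 37979 genes in 6 GAS libraries (3 WT, 3 KO). Per the labels, libraries were made with a stranded mRNA kit. The authors mapped reads to GRCm38 with TopHat and computed the FPKM with Cufflinks. Tool versions, the annotation release and whether counting used strand are not given in the sources used here. FPKM are not counts, so no count test was run. Depth was inferred from whole-fragment steps in low values (91.0% to 93.8% whole within 0.15). No pair of libraries shared more than 1 identical value over 14983 genes, so all were kept as replicates, and p-values measure the spread between mice.

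The 12334 genes averaging 0.5 FPKM or more were tested on log2(FPKM + 0.1) with limma 3.58.1 in R 4.3.3, with a variance trend, and adjusted by Benjamini-Hochberg over all of them. Single values were tested by exact permutation, two-sided. For GC content, each library's deviation from the gene mean was fitted by loess (span 0.3) and subtracted. Coordinates, exons and GC content came from GENCODE vM21, in which 32935 genes matched. GC content was known for 97.2% of tested genes. The limma step was tested on simulated data.

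The 37 genes and the 13 gene lists used beside them were chosen with earlier results of these data known. From each list, called genes were named, or otherwise the 2 genes with the lowest unadjusted p. Genes named beyond this rule include *Ppard*, beside the called *Esrra* of its list, and the slow fibre markers *Myh7*, *Tnni1* and *Mb*. The result of 1 listed gene is not reported here. Alternatives covered the pseudocount, filter, scaling, variance trend, library weights, replicate block, GC content, length, listed zeros and each library left out. Some alternatives were added after the data were seen: the GC correction without each library, the slow fibre covariate and the *Etfb* to *Etfa* ratio.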

Additional observations from a re-analysis of the deposited data

How the results depend on the processing

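The 0 calls among the 36 genes held under every alternative except library weights, which called 10, with 16 at an unadjusted p under 0.05 (9 as reported), where 41.3% of all genes had such a p (26.2% as reported). That count was 5 with the GC correction (10.7% of all genes) and 3 with the GC correction and the replicate block (9.44%). It was 5 to 12 with 1 library left out (18.2% to 25.3%) and 2 to 9 with the GC correction and 1 library left out (7.24% to 12.4%), with 4 without KO replicate 7. The number of genes above 0 (26) was 21 to 28 with 1 library left out, 20 to 30 with the GC correction as well, and 17 with the slow fibre covariate. The median log2 fold change (0.25) was then 0.075 to 0.38, 0.033 to 0.26 and -0.03. The lowest of the left-out values, 21 and 0.075, came without WT replicate 8. The cause was not tested.

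Replicate numbers did not pair the libraries (correlations of -0.025, -0.080 and 0.034 for numbers 1, 7 and 8). With the replicate block, 0 of the 36 were called, 8 had an unadjusted p under 0.05 (22.6% of all genes), and 13 of all genes were called against 40. Over all genes, calls ranged from 1, with genes listed at 0 left out, to 3147, with library weights.

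Signs turned for *Cd36* (0.31), *Slc27a4* (-0.0033), *Hadhb* (0.067), *Eci1* (-0.013) and *Mlycd* (-0.35) with the GC correction, with or without the replicate block. They turned for *Acsl1* (-0.0041) and *Etfdh* (-0.029) with median scaling, for *Acadm* (-0.028) and *Etfdh* (-0.0071) with the length correction, and for *Acsl1* (-0.032) and *Ehhadh* (-0.088) with library weights. With 1 library left out, signs turned for *Cd36* (-0.34 to 0.17), *Lpl* (-0.0010 to 0.80), *Acsl1* (-0.10 to 0.21), *Acsl5* (-0.016 to 0.30), *Acadl* (-0.0096 to 0.71), *Acadm* (-0.049 to 0.25), *Eci2* (-0.17 to 0.031), *Etfa* (-0.29 to 0.0095), *Etfdh* (-0.070 to 0.13) and *Ehhadh* (-0.073 to 0.23). Length correction shifted the median of all genes to -0.061 and median scaling to -0.038. The log2 ratio of *Cpt1a* to *Cpt1b* ranged from -0.52 to 0.14, that of *Hadha* to *Hadhb* from 0.43 to 0.63, that of *Etfb* to *Etfa* from 0.85 to 1.10, and *Acot1* from -0.71 to 0.60. Depth limits *Acot1* and *Kcnab2*, which rest on few fragments.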

Other observations

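Beside the pathway, 4 of 7 tested fast fibre markers were above 0 in KO as deposited and 1 of 7 after correction for GC content, with 0 called by limma and 0 at an unadjusted p under 0.05. The other 3 of the list, *Myh4*, *Atp2a1* and *Tnnt3*, were listed at 0 and could not be tested. Fast troponin I *Tnni2* was at 7742, 9464 and 10858 FPKM in WT and 11524, 9814 and 11647 FPKM in KO, and the fast light chain *Myl1* had a log2 fold change of -0.31 (SE 0.21). All 4 tested macrophage markers were above 0 (median 0.52, 0 called, 0 at an unadjusted p under 0.05), with summed levels of 3.47 to 10.4 FPKM in WT and 7.39 to 14.5 FPKM in KO. The scavenger receptor *Cd163* was at 0.620 to 1.94 FPKM in WT and 1.28 to 2.48 FPKM in KO, and *Cd68* at 0.313 to 1.93 FPKM in WT and 1.68 to 3.56 FPKM in KO. Of 8 skeletal muscle identity genes, 7 were above 0 as deposited and 4 after correction for GC content, led by *Des*, desmin, with a log2 fold change of 0.71 (SE 0.16) and *Acta1*, skeletal actin, with 0.83 (SE 0.24). Both of these genes had all KO libraries above all WT libraries, as did 18.3% of all tested genes.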
